A study of Mus musculus with 6 samples.

Results

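The 32 genes described here are targets and regulators of the sterol regulatory element-binding proteins (SREBPs) in cholesterol and fatty acid synthesis. They were taken as a fixed list of gene symbols, chosen with earlier results of these data known. Each was matched to probe sets whose array annotation gives that symbol and no other. All 32 were found, among 20416 genes measured, with 421 probe sets between them. They comprise 17 enzymes of sterol synthesis, 6 genes of SREBP regulation and sterol transport, and 9 enzymes of fatty acid synthesis and desaturation. RNA came from MIN6-4N, a mouse pancreatic beta cell line, on 6 Affymetrix arrays. One group, called vector, was a clone stably carrying the empty plasmid pcDNA3.1, and the other, called Meg3, a clone carrying pcDNA3.1 with mouse Meg3, a long non-coding RNA. Both clones had passed through 5 weeks of selection in 750 µg/ml G418 and were kept in low-glucose DMEM with 15% fetal bovine serum and 500 µg/ml G418, so both had serum lipids. Since 1 clone stands for each group and was cultured 3 times, p-values measure the spread between cultures. Meg3 and whatever else sets these clones apart cannot be told apart. A sort of the cells is mentioned in the labels but in no protocol, and the labels vary in what they call the Meg3 clone.

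SREBPs are transcription factors made as membrane proteins of the endoplasmic reticulum. When sterols are scarce, the escort protein SCAP carries them to the Golgi, where they are cut and freed to enter the nucleus. When sterols are plentiful, INSIG proteins hold SCAP back. SREBP2, from Srebf2, acts mainly on sterol synthesis and uptake, and SREBP1c, from Srebf1, mainly on fatty acid synthesis. In beta cells, cholesterol and unsaturated lipids are among the components of the membranes of insulin granules.

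The arrays were first checked against their labels. Meg3 itself read 5.63, 6.00 and 5.88 (log2) with the empty plasmid and 7.24, 7.91 and 7.53 with the Meg3 plasmid, without overlap. All 10 beta cell markers looked up lay above the median of all genes (6.66), Ins2, Iapp and G6pc2 among them. Markers of other cells also lay above it, namely Gcg, Irx2 and Ttr of alpha cells, Ppy of PP cells, Spp1 and Krt7 of duct, Col1a1 of fibroblasts, Cd68 of macrophages and Apoa1 of hepatocytes. The acinar, endothelial, delta cell and adipocyte markers measured lay below it. No marker on any of these lists was called by limma. The arrays of vector replicate 2 and of Meg3 replicate 1 stood apart. Their probe sets strayed from the other arrays' medians with an SD of 0.85 and 0.63 on the log2 scale, where the remaining 4 had 0.42 to 0.48. They touch most results below, so the members' differences are also given without them, from 2 arrays of each clone. The choice to leave them out was made with their spread known, so that setting is no independent support.

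Most of the module lay lower in the Meg3 clone, without a single member passing the test over all genes. In bulk RNA, fewer cells with a transcript and less of it per cell cannot be told apart. With all 6 arrays, 27 of the 32 members had a negative log2 difference (Meg3 minus vector), against 48.4% of all genes, and the members' median was -0.30 where that of all genes was 0.01. By limma with Benjamini-Hochberg adjustment over all genes, 0 of the 32 were called at an adjusted p under 0.05, where 0.666% of all genes were called, 0.465% lower. At an unadjusted p under 0.05, 13 members were lower and 0 higher, where 4.28% of all genes were lower. For 10 members every Meg3 array lay below every vector array, against 6.39% of all genes, and 0 members had the opposite order, against 6.41% of all genes. Without both arrays that stood apart, 13 members were called lower and 0 higher, where 5.44% of all genes were called, 4.01% lower. The members were chosen with earlier results known, so these counts beside all genes describe the list and do not test it. All 32 members lie above the median level of all genes. Of the 10208 such genes, 51.2% had a negative difference, and 590 were lower and 318 higher at an unadjusted limma p under 0.05. The clones did not overlap for 821 of them on the lower side and 641 on the higher. Without both arrays, 611 of them were called lower and 175 higher. Leaving out vector replicate 2 alone gave 5 called members, where 271 of the 20416 genes were called lower and 78 higher. Leaving out any of the other 5 arrays gave 0 called members, where 14 to 61 genes were called lower and 8 to 18 higher. The plot of differences shows which genes carry this.

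**Figure D1:**
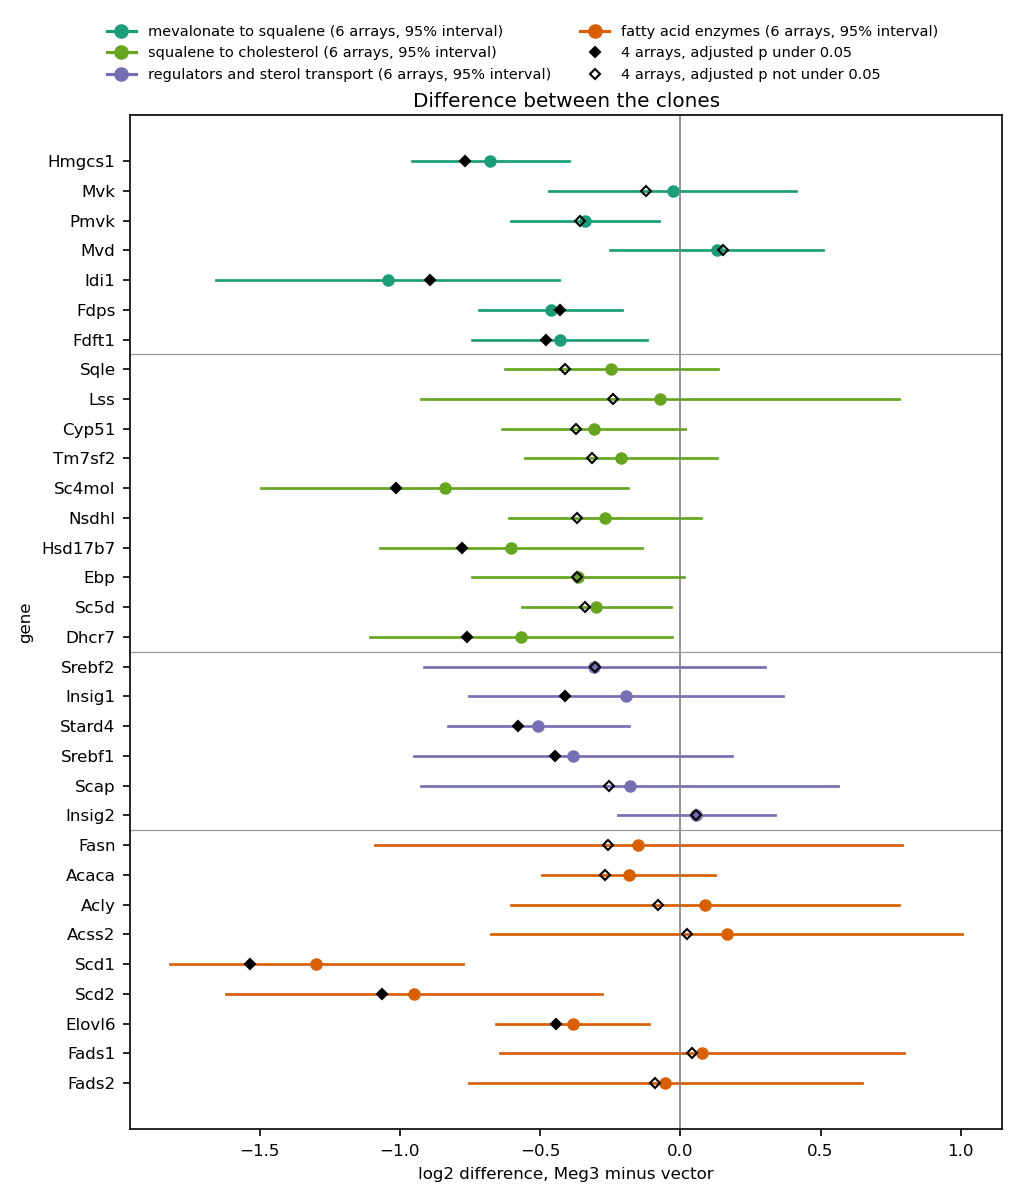
Log2 difference, Meg3 minus vector, for each of the 32 members. Circles with lines are the limma estimates and 95% intervals from all 6 arrays; diamonds are the estimates from the 4 arrays left without vector replicate 2 and Meg3 replicate 1, filled where the adjusted p was under 0.05. Filled diamonds mark 13 genes, all lower, from Scd1 at -1.53 to Insig1 at -0.41; the intervals from 6 arrays of Fasn, Acss2 and Lss reach far to both sides of 0.

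In the first stretch of the sterol pathway, from acetyl units through mevalonate to squalene, 6 of 7 enzymes were lower, against 48.4% of all genes. For 5 of them the clones did not overlap, where 6.39% of all genes were lower without overlap. Hmgcs1, which makes the HMG-CoA that feeds the pathway, read 9.32, 9.29 and 9.34 in the 3 vector arrays and 8.79, 8.64 and 8.49 in the 3 Meg3 arrays. All vector values lay within a narrow band above all Meg3 values, a log2 difference of -0.68 (SE 0.12; limma adjusted p = 0.0615), and of -0.77 (SE 0.10) without both arrays that stood apart. Idi1, which isomerises isopentenyl diphosphate, read 8.73, 9.61 and 8.72 in vector and 8.26, 8.04 and 7.62 in Meg3. The highest vector value came from replicate 2. Dropping both arrays that stood apart took the difference from -1.04 (SE 0.27) to -0.89 (SE 0.13). Fdps, which joins the units into farnesyl diphosphate, read 9.23, 9.22 and 9.25 in vector and 8.69, 8.75 and 8.87 in Meg3. Its difference of -0.46 (SE 0.11), or -0.43 (SE 0.10) with 4 arrays, was called without both arrays and with array weights, and under no other alternative. Fdft1, squalene synthase, read 11.05, 10.72 and 11.04 in vector and 10.39, 10.57 and 10.56 in Meg3, a difference of -0.43 (SE 0.14) with 6 arrays and -0.48 (SE 0.09) with 4. Pmvk, a kinase that acts on phosphomevalonate, also showed no overlap (-0.34, SE 0.11, and -0.36, SE 0.10).

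The remaining enzymes of this stretch had intervals on both sides of 0. Mvk, mevalonate kinase, differed by -0.03, with a 95% interval from -0.47 to 0.41. Mvd, the decarboxylase that precedes Idi1 in the pathway, differed by 0.13, with an interval from -0.25 to 0.51, and was the 1 sterol enzyme with a positive value. Without both arrays that stood apart, Mvk was at -0.12 and Mvd at 0.15, neither called by limma. Between adjoining steps the values therefore ran from 0.13 for Mvd to -1.04 for Idi1.

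From squalene onward to cholesterol, all 10 enzymes were on the negative side (median -0.30), against 48.4% of all genes. For 2 of them the clones did not overlap, where 6.39% of all genes were lower without overlap. Sc4mol, now named Msmo1, a methyl oxidase that removes methyl groups from the sterol ring, read 9.95, 10.30 and 9.83 in vector and 9.80, 9.17 and 8.58 in Meg3. Its Meg3 values were spread widely (SD 0.61), with replicate 1 just under the vector arrays and replicate 3 far below them. The difference was -0.84 (SE 0.29) with 6 arrays and -1.01 (SE 0.17) with 4. Hsd17b7, a ketosteroid reductase that follows in the same demethylation, read 9.62, 8.90 and 9.51 in vector and 8.65, 8.96 and 8.62 in Meg3. Vector replicate 2 lay among the Meg3 values, and the difference was -0.60 (SE 0.20) with 6 arrays and -0.78 (SE 0.12) with 4. Dhcr7, which makes cholesterol in the last reduction, had the same layout, with 8.34, 7.37 and 8.0 in vector and 7.19, 7.52 and 7.30 in Meg3. It differed by -0.57 (SE 0.23) with 6 arrays and by -0.76 (SE 0.13) with 4. Those 3 genes were called lower in the fit of 4 arrays, where 4.01% of all genes were.

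The remaining 7 enzymes of this stretch had smaller differences, and none was called by limma in either fit. Sc5d, a sterol desaturase, was the other gene without overlap, with values from 10.07 to 10.25 in vector and from 9.79 to 9.96 in Meg3 (-0.30, SE 0.12). Ebp, a sterol isomerase, differed by -0.36 (SE 0.16), Cyp51, the lanosterol demethylase, by -0.31 (SE 0.14), and Nsdhl, a dehydrogenase, by -0.27 (SE 0.15). Sqle, the squalene epoxidase, differed by -0.25 (SE 0.16) and Tm7sf2, a sterol reductase, by -0.21 (SE 0.15). Lss, which folds squalene epoxide into lanosterol, had the widest spread of the sterol enzymes. It read 8.26, 7.13 and 8.50 in vector and 7.39, 8.36 and 7.91 in Meg3, a difference of -0.07 with an interval from -0.93 to 0.78. Without both arrays that stood apart, several of these were further from 0, with Sqle at -0.41 (SE 0.11), Lss at -0.24 (SE 0.15), Tm7sf2 at -0.32 (SE 0.13) and Nsdhl at -0.37 (SE 0.11). Cyp51 was then at -0.37 (SE 0.14), Ebp at -0.37 (SE 0.11) and Sc5d at -0.34 (SE 0.10).

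**Figure D2:**
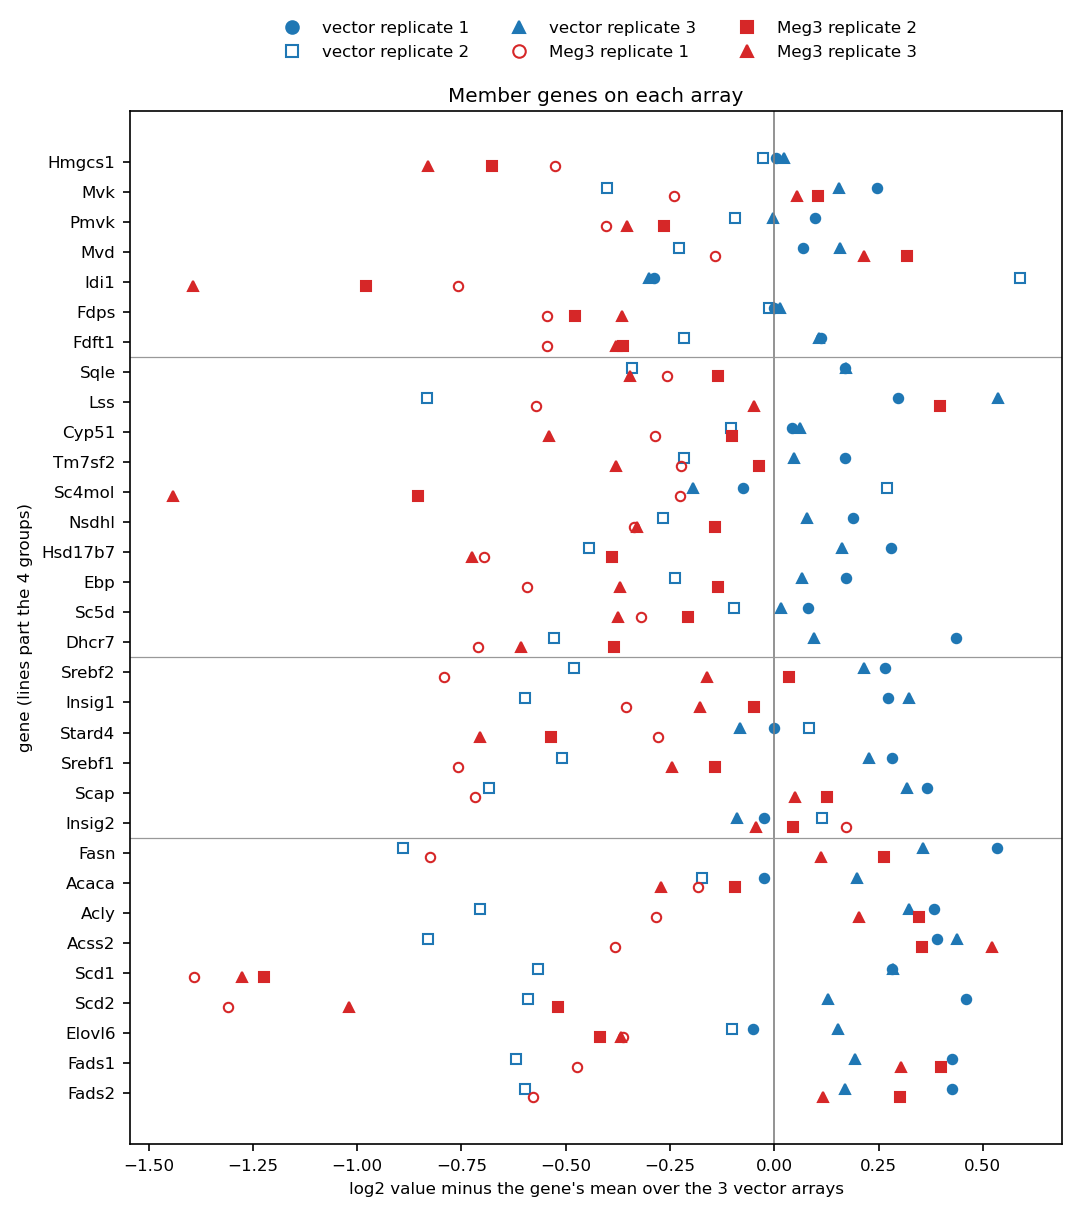
Log2 value of each member on each of the 6 arrays, minus that gene's mean over the 3 vector arrays; blue marks vector and red Meg3, and open marks are vector replicate 2 and Meg3 replicate 1. For Hmgcs1, Fdps, Scd1 and Elovl6 the red marks lie left of all blue marks, whereas for Fasn, Acss2 and Fads2 the open marks lie left of the filled ones whatever their colour.

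Promoter sequence was available for 25 of the 32 genes in RefSeq (GRCm38.p6), 14 of them sterol enzymes and 6 fatty acid enzymes, and is shown because SREBPs act together with the factor NF-Y at nearby CCAAT boxes. The 250 bases before each annotated start were searched on both strands for CCAAT, for TCACNCCAC, a loose form of the sterol regulatory element, for the E-box CACGTG and for the Sp1 site GGGCGG. Below are 5 windows, 5′ to 3′ along the gene, with CCAAT (or ATTGG on the other strand) and TCACNCCAC in capitals. Hmgcs1, Idi1 and Sc4mol had large differences among the sterol enzymes with a window, Mvd had a positive one, and Elovl6 stands for the fatty acid enzymes.
Hmgcs1, chr13:119690101-119690350, plus strand: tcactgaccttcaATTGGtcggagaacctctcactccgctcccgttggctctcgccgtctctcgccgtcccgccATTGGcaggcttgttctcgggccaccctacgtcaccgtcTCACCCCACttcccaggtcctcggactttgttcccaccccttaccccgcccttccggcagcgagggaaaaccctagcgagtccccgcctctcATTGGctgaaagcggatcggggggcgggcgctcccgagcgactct
Idi1, chr13:8885356-8885605, plus strand: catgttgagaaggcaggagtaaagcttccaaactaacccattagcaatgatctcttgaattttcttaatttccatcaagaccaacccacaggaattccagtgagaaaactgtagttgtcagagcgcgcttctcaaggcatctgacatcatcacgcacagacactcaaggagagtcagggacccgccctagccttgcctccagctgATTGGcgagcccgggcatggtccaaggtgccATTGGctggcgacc
Sc4mol, chr8:64733579-64733828, minus strand: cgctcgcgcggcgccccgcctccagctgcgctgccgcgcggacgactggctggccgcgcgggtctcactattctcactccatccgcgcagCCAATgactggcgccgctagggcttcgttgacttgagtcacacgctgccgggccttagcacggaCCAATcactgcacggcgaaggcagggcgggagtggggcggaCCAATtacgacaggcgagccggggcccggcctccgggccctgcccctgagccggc
Mvd, chr8:122443423-122443672, minus strand: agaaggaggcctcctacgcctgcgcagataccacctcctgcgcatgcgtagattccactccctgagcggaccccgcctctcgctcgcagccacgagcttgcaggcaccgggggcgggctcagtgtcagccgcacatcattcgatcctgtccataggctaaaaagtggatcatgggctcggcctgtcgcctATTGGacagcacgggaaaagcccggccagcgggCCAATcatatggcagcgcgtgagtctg
Elovl6, chr3:129532136-129532385, plus strand: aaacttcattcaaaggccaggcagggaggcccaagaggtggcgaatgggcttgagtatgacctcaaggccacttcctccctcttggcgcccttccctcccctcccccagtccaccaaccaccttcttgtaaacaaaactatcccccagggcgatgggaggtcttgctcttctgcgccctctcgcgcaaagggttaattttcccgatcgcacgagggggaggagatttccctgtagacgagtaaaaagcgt
The Hmgcs1 window holds 3 CCAAT boxes and 1 loose sterol element 137 bases before the start, Idi1 and Mvd hold 2 CCAAT boxes each, Sc4mol holds 3, and Elovl6 none. Across the members, a CCAAT box was found for 14 of 14 sterol enzymes and for 2 of 6 fatty acid enzymes, Fasn and Acss2. Of all 27025 genes with a window 37.5% had one, and 39.0% of those on the array. Genes with several windows have more chances of a match, and counted by window the sterol enzymes had one in 14 of 17 and all genes in 33.8% of 32851. The loose element occurred in Hmgcs1 alone among the members and in 1.05% of all windows. The element of 10 letters was found for 0 of 14 sterol enzymes, 0 of 6 fatty acid enzymes and 0 of 5 regulators. It occurred in 0.073% of all windows. An E-box was found for Hsd17b7, Sc5d, Dhcr7, Insig1 and Scap, where 8.16% of the 13672 array genes with a window had one. GGGCGG was found for 13 of the 14 sterol and 3 of the 6 fatty acid enzymes, where 50.1% of array genes had it. These are matches of letters, not measured binding, and any relation to the differences between the clones was not tested.

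Among the 6 genes of regulation and transport, 5 had negative differences (median -0.25). Stard4, which carries sterols between membranes, read 8.47, 8.55 and 8.39 in vector and 8.19, 7.94 and 7.77 in Meg3. The clones did not overlap, and the difference was -0.51 (SE 0.14; limma adjusted p = 0.275), or -0.58 (SE 0.10) without both arrays that stood apart. Insig1, a sterol-responsive anchor of SCAP, read 11.45, 10.58 and 11.50 in vector and from 10.82 to 11.13 in Meg3. Vector replicate 2 was the lowest of all 6 arrays, so that the difference was -0.19 (SE 0.24) with 6 arrays and -0.41 (SE 0.10) with 4. Srebf1 differed by -0.38 (SE 0.25) and, without both arrays, by -0.45 (SE 0.10), with -0.64 to -0.19 when 1 array was left out. Stard4, Insig1 and Srebf1 were the regulators called lower in the fit of 4 arrays, where 4.01% of all genes were.

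The genes of the SREBP machinery called in neither fit were Srebf2, Scap and Insig2. Srebf2 read 8.82, 8.08 and 8.77 in vector and 7.76, 8.59 and 8.39 in Meg3, a difference of -0.31 (SE 0.26) with 6 arrays and -0.30 (SE 0.10) with 4. Single arrays moved it, to -0.55 without vector replicate 2 and to -0.06 without Meg3 replicate 1. Scap differed by -0.18 (SE 0.32), or -0.25 (SE 0.10) with 4 arrays, and had its lowest values on the arrays that stood apart, 7.73 in vector and 7.70 in Meg3, where the other 4 ran from 8.47 to 8.78. Insig2, the less sterol-responsive relative of Insig1, differed by 0.06, with an interval from -0.22 to 0.34, and by 0.06 (SE 0.10) with 4 arrays.

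Among the fatty acid enzymes, 6 of 9 had negative differences. The desaturase gene Scd1, whose enzyme puts the first double bond into saturated acyl chains, had the largest difference of the module. It read 9.81, 8.96 and 9.81 in vector and 8.13, 8.30 and 8.25 in Meg3. Every Meg3 array lay below every vector array, vector replicate 2 included, a 2.46-fold lower level (log2 difference -1.30, SE 0.23; limma adjusted p = 0.0557). Scd1 was called lower by limma after centring each array on its median (0.0334), after quantile normalization (0.0291), with the brightest probe set (0.0146), and without both arrays that stood apart (2.86e-05, at -1.53, SE 0.09), while its adjusted p ran from 1.19e-06 to 0.304 over all alternatives. Scd2, the related desaturase, read 10.77, 9.72 and 10.44 in vector and 9.0, 9.79 and 9.29 in Meg3, and differed by -0.95 (SE 0.29), or -1.06 (SE 0.17) with 4 arrays. Vector replicate 2 fell just under Meg3 replicate 2, so the groups touched. The genes of the Scd family resemble each other closely, which leaves the split of signal between Scd1 and Scd2 probes uncertain. Elovl6, the elongase that acts beside the desaturases, read 7.84, 7.79 and 8.05 in vector and 7.53, 7.48 and 7.53 in Meg3. The clones did not overlap for it (-0.38, SE 0.12, and -0.44, SE 0.11, with 4 arrays). With Scd1 and Scd2 it was called lower in the fit of 4 arrays, where 4.01% of all genes were.

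The enzymes that supply and build the chain, and those that desaturate polyunsaturated fats, had intervals on both sides of 0. Fasn, fatty acid synthase, read 8.47, 7.05 and 8.30 in vector and 7.11, 8.2 and 8.05 in Meg3. The low values were vector replicate 2 and Meg3 replicate 1, and the difference was -0.15 with an interval from -1.09 to 0.79, and -0.26 (SE 0.11) without both. Acly, which makes cytosolic acetyl-CoA from citrate, had the same layout, from 10.76 to 11.85 in vector and from 11.18 to 11.81 in Meg3. It differed by 0.09, and by -0.08 (SE 0.10) without both arrays. Acss2, which makes acetyl-CoA from acetate, differed by 0.16 with 6 arrays and 0.02 (SE 0.10) with 4. Fads1 and Fads2, the delta-5 and delta-6 desaturases, differed by 0.08 and -0.05 with 6 arrays and by 0.04 (SE 0.11) and -0.09 (SE 0.12) with 4. Acaca, the acetyl-CoA carboxylase, differed by -0.18 (SE 0.13) and by -0.27 (SE 0.11). None of these 6 was called by limma in either fit, though Acaca was with array weights (adjusted p = 0.0186, in a range up to 1.0 over the alternatives). No difference between steps was tested.

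Between the clones, the median difference was -0.34 over the 17 sterol enzymes and -0.15 over the 9 fatty acid enzymes, or -0.05 over the 7 without Scd1 and Scd2, a set chosen after its values were seen. Since the members were chosen with results of these data known, these medians carry no test. The sterol median stayed negative whichever array was left out, from -0.47 to -0.29. The fatty acid median did not keep its direction, at 0.19 without Meg3 replicate 1, 0.12 without vector replicate 1, 0.03 without vector replicate 3 and -0.35 without vector replicate 2. Without both arrays that stood apart, the medians were -0.37 and -0.26.

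Single arrays show where the fatty acid branch loses its direction. As medians of each gene's deviation from its mean over 6 arrays, the sterol enzymes stood at 0.29, -0.05 and 0.23 in vector and at -0.23, -0.06 and -0.22 in Meg3. Vector replicate 2 stood level with Meg3 replicate 2, the highest Meg3 array, and the other vector arrays well above. The fatty acid enzymes stood at 0.39, -0.57 and 0.34 in vector and at -0.51, 0.27 and 0.14 in Meg3. Here the arrays that stood apart held both of the low values, 1 in each clone, while all genes together kept medians from -0.03 to 0.05. Of the 9 comparisons of 1 Meg3 array with 1 vector array, the sterol median was negative in 8 and the fatty acid median in 6. The sterol exception was Meg3 replicate 2 minus vector replicate 2, at 0.05, where the fatty acid median was 0.90. Those involving vector replicate 2 gave fatty acid medians from 0.02 to 0.90, and the other 6 gave -0.90 to -0.09. Hmgcs1, Idi1 and Scd1 were lower in 9 of 9, by -0.85 to -0.50, -1.98 to -0.46 and -1.68 to -0.66. The sterol median minus the fatty acid median was negative in 7 of 9, down to -0.88, and positive for Meg3 replicate 1 minus vector replicate 1 (0.40) and minus vector replicate 3 (0.32). These 9 comparisons share arrays and are not independent.

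**Figure D3:**
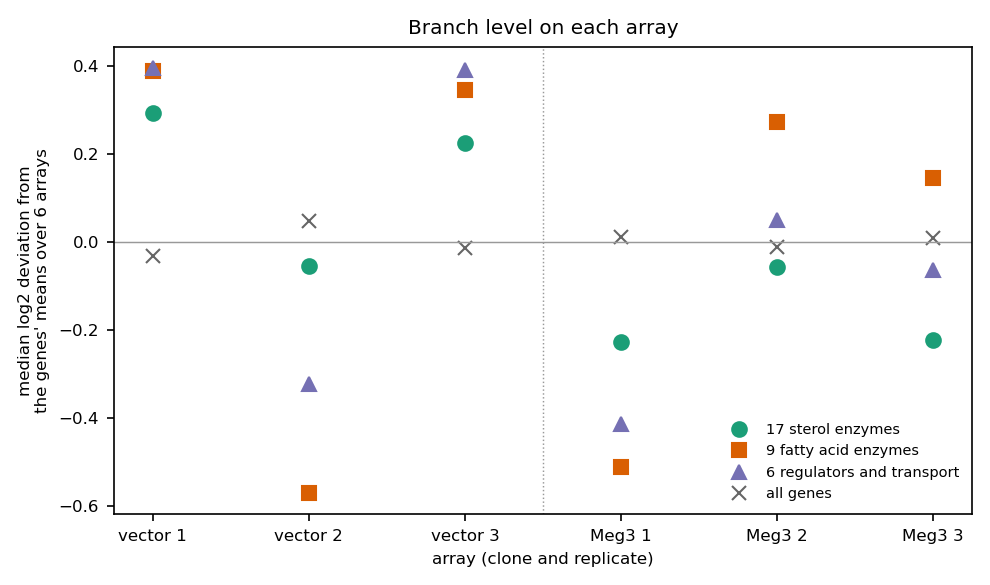
Median, over the genes of a branch, of the log2 deviation from each gene's mean over the 6 arrays, for each array. Circles are the sterol enzymes, squares the fatty acid enzymes, triangles the regulators and transport genes, and crosses all genes; the squares fall to -0.57 in vector replicate 2 and -0.51 in Meg3 replicate 1, while the circles stay between -0.23 and 0.29.

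The members differed widely in how they read on the arrays that stood apart. Compared with the other arrays of its clone, vector replicate 2 was lower for 28 of the 32 members, with a median of -0.46, and Meg3 replicate 1 for 25, with a median of -0.16. Over all genes those medians were 0.08 and 0.02, and over genes above the median level, as all 32 members are, -0.18 and -0.06. For fatty acid enzymes they were -0.90 and -0.56, and for sterol enzymes -0.33 and -0.10. Fasn was lowest on both, by -1.33 and -1.01, and under 1% of all genes were lower on either (0.960% and 0.416%). Idi1 went the other way on both (0.88 and 0.43), as did Sc4mol (0.41 and 0.92). Across the 32 members the departures of both arrays correlated at Pearson r = 0.88, and over all genes at 0.65, with arrays from different clones. Members with more probe sets departed further downward in vector replicate 2 (r = -0.57 across members, -0.20 across all genes). The part of these departures in the difference between clones was measured by leaving the arrays out, and what made them differ was not tested.

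**Figure D4:**
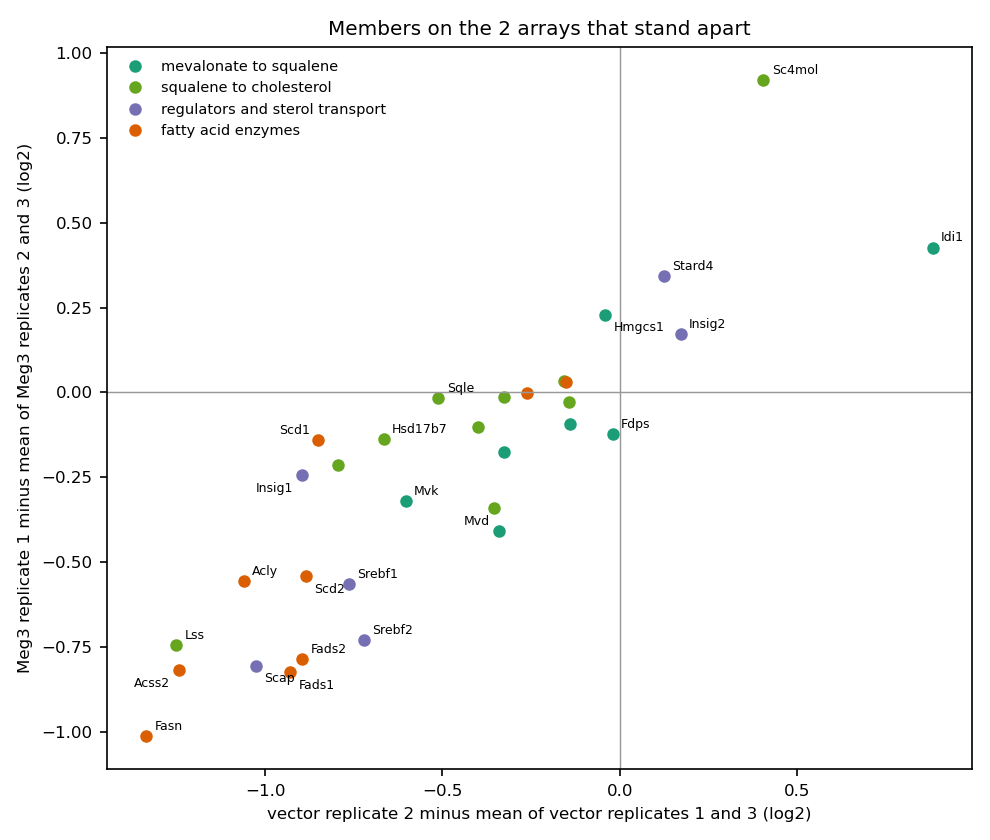
Departure of each member on vector replicate 2 (horizontal axis) and Meg3 replicate 1 (vertical axis) from the mean of the other arrays of the same clone, in log2. Most genes lie in the lower left, from Fasn at -1.33 and -1.01; Idi1 and Sc4mol lie far in the upper right. Points in the crowded middle carry no name.

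Single probe sets, each covering about an exon, show how evenly a gene's difference was spread. All 9 probe sets of Idi1 were lower, by -1.28 to -0.84, as were all 5 of Sc4mol, all 11 of Hsd17b7 and all 5 of Scd2. For Scd1 all 9 were lower, by -1.77 to -0.68. Hmgcs1 had 12 of 13 lower. Fasn, with 47 probe sets, had 34 lower, and its values ran from -1.67 to above 1. Acly had 11 of 31 lower and Acss2 9 of 20. Tested singly with adjustment over all probe sets, 0 probe sets of any member were called by limma.

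**Figure D5:**
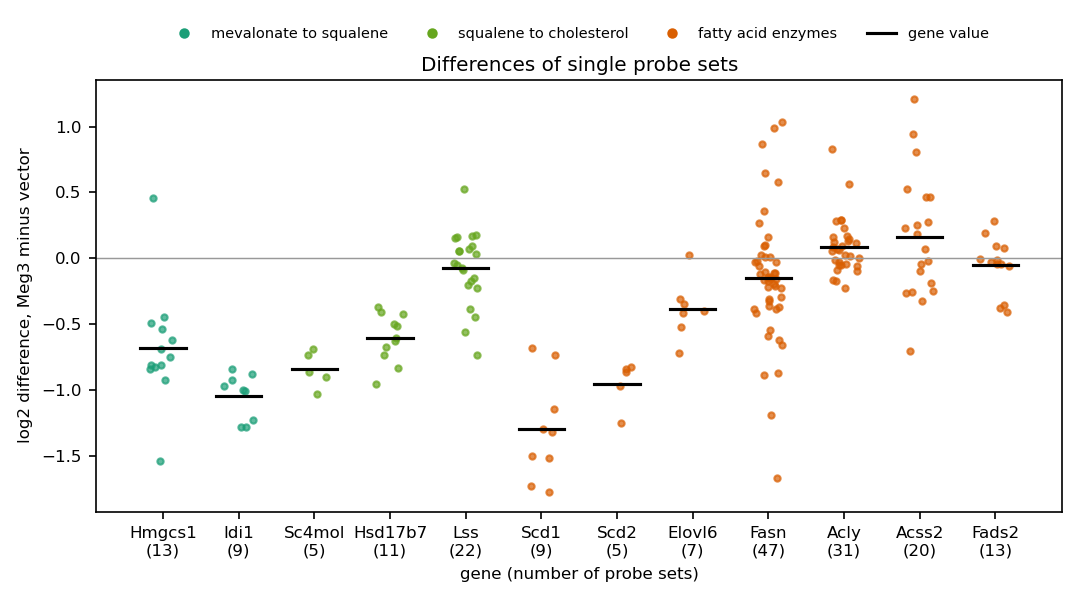
Log2 difference, Meg3 minus vector, of every probe set of 12 members; points are probe sets, bars the gene's value, and the number under each name its probe sets. The points of Idi1, Sc4mol, Hsd17b7, Scd1 and Scd2 all lie below 0, while those of Fasn run from -1.67 to above 1.

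Other genes of lipid metabolism were read the same way, from lists grouped by role. Of 11 measured genes for SREBP cleavage and sterol-regulated degradation, 5 were lower and 6 higher (median 0.00), and without both arrays that stood apart 7 were lower (median -0.06). Of 11 other isoprenoid and sterol genes, 4 were lower (median 0.04), and without both arrays this turned, with 7 lower (median -0.10). Of 16 genes of the sterol-sensing receptor LXR, of sterol efflux and of esterification, 11 were lower (median -0.10), and 8 without both arrays (median -0.01). Npc2, which moves cholesterol out of lysosomes, read 9.50, 9.01 and 9.28 in vector and 8.52, 8.99 and 8.71 in Meg3, a difference of -0.52 (SE 0.17). Its partner Npc1 differed by 0.27 (SE 0.23), and Soat1, which esterifies cholesterol, by -0.20 (SE 0.11). Of 12 other genes known to respond to SREBPs, 10 were lower (median -0.11), and 9 without both arrays (median -0.20). Me1, malic enzyme, which supplies NADPH for lipid synthesis, read 10.28, 10.30 and 10.34 in vector and 10.01, 9.85 and 9.79 in Meg3, a difference of -0.42 (SE 0.11). Fabp3, a fatty acid-binding protein, differed by -0.52 (SE 0.17). Of 18 other genes of fatty acid and triglyceride synthesis, 10 were lower (median -0.09), and 13 without both arrays (median -0.14), with Acsl4, an acyl-CoA synthetase, at -0.46 (SE 0.15). Of 11 genes of fatty acid oxidation, 4 were lower (median 0.12), and 5 without both arrays (median 0.02), with Hadha at 0.34 (SE 0.21). By limma 0 genes of these lists were called with 6 arrays, and 6 were lower and 0 higher at an unadjusted p under 0.05, where 4.28% of all genes were lower. Npc2 and Me1 were called lower in the fit of 4 arrays, where 4.01% of all genes were.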

How the data were processed

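For each of 6 arrays the authors deposited 1 log2 value a probe set, and the submitters' processing notes list RMA and Partek. No version, setting or genome build is given in the sources used here. Of 241419 probe sets, 212097 carry 1 gene symbol in the array annotation and were used, 4475 carry several and 24847 none. A gene's value was the mean log2 value of its probe sets on an array. The clones were then compared by limma 3.58.1 (R 4.3.3), with lmFit and eBayes and no covariate, as two-sided tests adjusted by Benjamini-Hochberg over all 20416 genes, with no filter on dim genes. A gene was called at an adjusted p under 0.05. Errors beside differences are the model's standard errors. The number of arrays limits the precision. The steps were tested on simulated data with independent noise for each gene and array, in which no array stood apart. The members and lists were chosen with earlier results of these data known. Named genes were all 32 members and, from each other list, called genes and up to 3 with the largest difference above the median level of all genes. Sequences were matched by symbol. Arrays with the same culture number were not paired across clones in the main fit. Their deviations from the group means correlated at -0.61, -0.63 and 0.28. The signs follow which arrays stood apart, so these values cannot decide whether the cultures were paired. Alternatives are listed in the closing section.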

Additional observations from a re-analysis of the deposited data

How the results depend on the processing

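The sterol median stayed negative under every alternative that kept more than 1 array a clone (-0.48 to -0.29), whereas the fatty acid median ran from -0.35 to 0.19. Sterol minus fatty acid was negative under those alternatives (-0.50 to -0.12) but not in every single-array comparison (-0.88 to 0.40). With a replicate block, 11 genes were called higher and 19 lower, with 0 members among them. The median of probe sets gave 16 and 42, and the brightest probe set 12 and 28. Array weights gave 1063 and 1619, with 13 sterol and 4 fatty acid enzymes called, but the weights stopped short of convergence and put 10.5 on vector replicate 3 against 0.130 on vector replicate 2. Without both arrays that stood apart there were 292 and 819, with 7 sterol and 3 fatty acid enzymes. Leaving out 1 array gave 8 to 78 higher and 14 to 271 lower, 0 to 3 sterol enzymes and 0 to 2 fatty acid enzymes; the 3 and the 2 came without vector replicate 2. Centring, quantile normalization and the brightest probe set each gave 1 fatty acid enzyme, Scd1. The cause of these shifts was not tested. Single-array sterol medians that moved by more than the spread between arrays were -0.50 and -0.52 (Meg3 replicates 1 and 3 minus vector replicate 1) and 0.054 and -0.16 (Meg3 replicates 2 and 3 minus vector replicate 2); fatty acid medians were -0.90 and -0.75 (Meg3 replicate 1 minus vector replicates 1 and 3) and 0.90 and 0.71 (Meg3 replicates 2 and 3 minus vector replicate 2). These single comparisons and the set without Scd1 and Scd2 were chosen after seeing the data.

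Directions of members near 0 turned. The brightest probe set gave 0.16 for Mvk, 0.078 for Sqle, 0.075 for Lss and 0.015 for Acaca, the median of probe sets 0.044 for Lss and -0.10 for Insig2, and probe sets above the median 0.023 for Lss. Array weights gave -0.11 for Acly and -0.055 for Acss2, and Acly was -0.078 without both arrays. Leaving out 1 array turned Acly (-0.26 to 0.28), Acss2 (-0.25 to 0.44), Fads1 (-0.23 to 0.35), Fads2 (-0.35 to 0.21), Fasn (-0.59 to 0.19), Lss (-0.49 to 0.19), Mvk (-0.23 to 0.10) and Scap (-0.52 to 0.088). It kept the direction of Srebf2 (-0.55 to -0.06), Insig1 (-0.49 to -0.03), Mvd (0.02 to 0.27) and Acaca (-0.27 to -0.08), but moved each by over 1.5 times. The same held for Insig2 (5.6e-05 to 0.11), Srebf1 (-0.64 to -0.19), Dhcr7 (-0.83 to -0.35) and Tm7sf2 (-0.32 to -0.13). It also held for Cyp51 (-0.41 to -0.19), Sc4mol (-1.15 to -0.54), Sqle (-0.42 to -0.16) and Nsdhl (-0.40 to -0.18). Ebp was at -0.02 with the brightest probe set. Under all these alternatives the 21 members not listed as turned kept their direction, though not always their size. The 6 arrays limit what can be seen of single fatty acid enzymes, as the interval of Fasn from -1.09 to 0.79 shows. Probe signal against background was not analysed here.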
